A study of Mus musculus with 4 samples.

Results

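A set of 7 genes of hemoglobin and the red cell was described across lung libraries of mice given amiodarone, dabigatran, both drugs or vehicle. They are the alpha globins Hba-a1 and Hba-a2, the beta globins Hbb-bs and Hbb-bt, the heme synthesis gene Alas2, the anion exchanger gene Slc4a1 and the enzyme gene Bpgm, which make 7 of the 17780 genes listed. They were picked because their levels were lower with both drugs than with amiodarone alone, so that contrast is given below as a description of the choice. In brief, with the library of both drugs called the combination, the summed level of the 4 globin genes was 15739 FPKM in the vehicle library, 21342 in the amiodarone, 17484 in the dabigatran and 8497 in the combination library. FPKM is the number of sequenced fragments on a gene relative to its transcript length and to the depth of the library.

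Adult hemoglobin is a tetramer of paired alpha and beta globin chains, each holding a heme group whose iron binds oxygen. Red cells build it while they mature in the marrow and spleen, and in rodents the youngest cells enter the blood as reticulocytes that still carry globin mRNA. The lung receives the whole output of the right heart, so RNA from lung tissue that was not cleared of blood includes RNA of circulating cells. Low hemoglobin expression has also been described in other cells, among them alveolar epithelium, and the libraries do not separate these sources. In bulk tissue, fewer cells of a type and less RNA per cell cannot be told apart.

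Amiodarone is an antiarrhythmic drug with known lung toxicity, and dabigatran is an inhibitor of thrombin used to prevent clotting. Male C57BL/6 mice (C57BL/6J in the study's methods), 6 to 7 weeks old when bought, received amiodarone at 300 mg per kg, dabigatran (as dabigatran etexilate) at 60 mg per kg, both at these doses, or the carboxymethylcellulose vehicle alone, by mouth on weekdays. The labels give a treatment of 28 days and the methods place tissue collection on day 26. Poly(A) RNA of the left lung was sequenced, with 1 library in each of the 4 groups, and whether a library stands for 1 animal and whether lungs were perfused are not given in the sources used here. Every comparison therefore sets 1 library against 1 other, a test over animals would need replicates, and none was run.

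The libraries held between 17498486 and 18903401 estimated reads, a similar depth. Lung identity was clear in each of them, with all 10 listed epithelial genes and all 12 listed endothelial genes above 1 FPKM, among them the surfactant gene Sftpc at 19587 to 20385 FPKM. Intervals in parentheses are exact 95% counting intervals from the reads on either side of a comparison. They cover counting error only, and compare libraries rather than treatments. A difference is called beyond counting error where the interval excludes a ratio of 1. More reads give narrower intervals, so abundant genes such as the globins pass at smaller differences than genes with few reads. Shares over all genes given beside the members are not matched for read depth.

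The globin genes stand in closely related pairs, which bears on how their reads can be counted. Within each pair the coding regions differ at a single base. Hba-a1 and Hba-a2, on chromosome 11, differ by C381T in 426 coding bases, and Hbb-bs and Hbb-bt, on chromosome 7, differ by C417T in 441 coding bases. Positions are counted from 1 at the A of the start codon, with the first gene's base before the number, and both differences fall on position 3 of a codon and leave the encoded amino acid as it was. The stretches around these bases are shown from the GENCODE release M21 transcripts of GRCm38, 5′ to 3′, with the differing base in capitals.
Hba-a1: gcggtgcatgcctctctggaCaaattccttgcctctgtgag
Hba-a2: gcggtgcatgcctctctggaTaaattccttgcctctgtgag
Hbb-bs: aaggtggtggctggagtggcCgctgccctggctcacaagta
Hbb-bt: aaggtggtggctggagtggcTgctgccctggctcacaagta

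Of all stretches of 100 bases in the Hba-a1 transcript, 56.5% also occur in Hba-a2, and of those in Hbb-bs 62.6% also occur in Hbb-bt. No stretch of 50 bases is shared between Hba-a1 and Hbb-bs. The deposited reads of the 4 globin genes are fractional, as estimates that divide shared reads between genes are. The values of single globin genes are thus uncertain within a pair, and the summed reads of a pair do not depend on that division. Reads of Alas2, Slc4a1 and Bpgm are whole numbers in all 4 libraries.

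Hba-a1, from 32283672 to 32284486 on chromosome 11 of GRCm38.p6, encodes an alpha chain of adult hemoglobin. Its level was 6181 FPKM in the vehicle library, 8183 in the amiodarone, 6683 in the dabigatran and 3397 in the combination library. By mean level over the libraries it was number 3 of the 17780 genes. The amiodarone library stood highest and the combination library lowest, with the vehicle and dabigatran libraries near each other between them. Hba-a2, from 32296492 to 32297310 on the same chromosome, encodes the same chain and was number 6 by mean level. It measured 4398 FPKM in the vehicle library, 5661 in the amiodarone, 4757 in the dabigatran and 2205 in the combination library. The order of the libraries was that of Hba-a1.

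Hbb-bs, from 103826523 to 103827928 on chromosome 7, is a gene of the beta chain, the more abundant of the pair in these lungs, and was number 5 by mean level. Its level was 4561 FPKM in the vehicle library, 6645 in the amiodarone, 5337 in the dabigatran and 2540 in the combination library. Hbb-bt, from 103812524 to 103813923, was number 75. It measured 598 FPKM in the vehicle library, 853 in the amiodarone, 706 in the dabigatran and 355 in the combination library. These are the beta globin genes of the C57BL/6 haplotype. Hbb-b1 and Hbb-b2, the beta globin genes of the other common mouse haplotype, were nearly unread, at 1.6 to 8.28 estimated reads for Hbb-b1 and 0 to 2 for Hbb-b2, which fits the strain on the labels.

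Alas2, from 150547417 to 150570622 on the X chromosome, encodes the erythroid form of the enzyme that starts heme synthesis. It measured 46.2 FPKM in the vehicle library, 65.4 in the amiodarone, 53.6 in the dabigatran and 27.3 in the combination library, from 990 to 2351 reads. Bpgm, from 34476356 to 34505136 on chromosome 6, encodes the mutase that makes 2,3-bisphosphoglycerate, a small molecule that lowers the oxygen affinity of hemoglobin. Its level was 29.65 FPKM in the vehicle library, 36.7 in the amiodarone, 33.55 in the dabigatran and 26.1 in the combination library. The libraries ranked alike for both genes, but the levels of Bpgm lay closer together.

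Slc4a1, from 102348820 to 102365281 on chromosome 11, encodes band 3, the chloride and bicarbonate exchanger of the red cell membrane. It was at the edge of detection, at 0.41 FPKM in the vehicle library, 1.17 in the amiodarone, 0.63 in the dabigatran and 0.49 in the combination library. These values rest on 32, 99, 50 and 42 reads, and only the amiodarone library reached 1 FPKM. Counts over all genes were limited to those reaching 1 FPKM on either side of a comparison, a limit that Slc4a1 passed only where the amiodarone library took part.

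**Figure D1:**
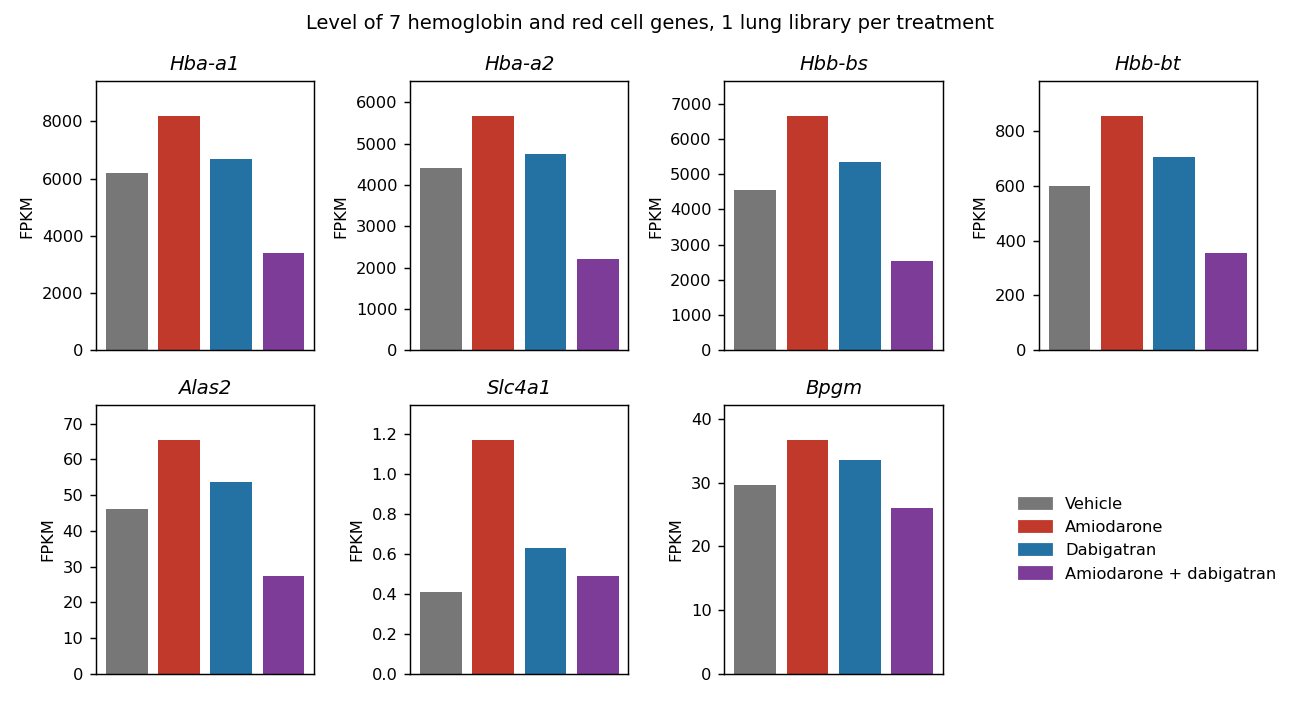
Level in FPKM (vertical axes, each starting at 0, with its own scale) of the 7 genes in the vehicle, amiodarone, dabigatran and amiodarone + dabigatran libraries, 1 bar per library and no error bars because each group holds 1 library. The amiodarone bar is the highest in all 7 panels and the combination bar the lowest in 6, the exception being Slc4a1, whose vehicle bar of 0.41 FPKM is the lowest.

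Of the 7 genes, 6 thus had the order amiodarone, dabigatran, vehicle, combination from high to low, and Slc4a1 had the combination above vehicle. Among the 13536 genes that reached 1 FPKM in any library, 311 (2.30%) had the order of the 6 genes. Among the 5671 of them that were lower with the combination than with amiodarone, as the 7 genes had to be, the share was 5.48%. That set includes falls of any size, and neither share is matched for read depth. The choice of the 7 genes favours amiodarone at the top and the combination at the bottom of the order. Between neighbours in the order, amiodarone exceeded dabigatran beyond counting error for each of the 7 genes, with ratios from 1.09 (1.002 to 1.19) for Bpgm to 1.86 (1.31 to 2.66) for Slc4a1. Dabigatran exceeded vehicle, and vehicle exceeded the combination, beyond counting error for the 6 genes other than Slc4a1. For Slc4a1 the dabigatran, combination and vehicle libraries were within counting error of each other.

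Amiodarone alone was compared with vehicle to see the genes under the toxic drug. The globin sum was 1.36 times that of vehicle (1.35 to 1.37), with the alpha pair at a ratio of 1.31 (1.30 to 1.32) and the beta pair at 1.45 (1.44 to 1.47). All 7 genes were higher beyond counting error, against 19.6% of the 13402 genes that reached 1 FPKM on either side, a share not matched for read depth. By size the genes split. Alas2 had a ratio of 1.42 (1.33 to 1.51) and Bpgm of 1.24 (1.13 to 1.35), while Slc4a1, from 99 reads against 32, had a ratio of 2.85 (1.90 to 4.39). Slc4a1, which passed the limit of 1 FPKM through the amiodarone library, was the only member at least 1.5-fold higher, which 5.49% of all genes were, and no member was 1.5-fold lower, against 7.22% of all genes. The median log2 ratio of the 7 genes was 0.50, and that of all genes -0.05. The amiodarone library is also one side of the contrast from which the genes were picked, so this comparison is not independent of the choice.

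Dabigatran alone against vehicle is the only comparison that shares no library with the choice of the genes. Hemoglobin was slightly higher with dabigatran, at 17484 FPKM summed against 15739 with vehicle, a ratio of 1.11 (1.10 to 1.12). The beta pair, at 1.17 (1.16 to 1.18), lay further above vehicle than the alpha pair, at 1.08 (1.07 to 1.09). Alas2 had a ratio of 1.16 (1.08 to 1.24) and Bpgm of 1.13 (1.03 to 1.24). All 7 genes were higher than in the vehicle library, as were 50.1% of the 13373 genes counted. For 6 of the 7 the difference was beyond counting error, against 15.2% of the genes counted. The remaining gene, Slc4a1, had a ratio of 1.54 whose interval of 0.967 to 2.47 includes 1, so its difference was not detectable at this depth. It was the only member past 1.5-fold, but it did not reach 1 FPKM in either library and is not among the genes counted. Of the 6 members counted, 0 were at least 1.5-fold higher, beside 1.45% of all genes. The median log2 ratio was 0.21 for the 7 genes and 0.00 for all genes. With 1 library on each side, the variation between animals is unknown and cannot be told apart from the treatment.

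The contrast of amiodarone + dabigatran with amiodarone chose the genes and is described without a test. Hemoglobin summed to 8497 FPKM with both drugs and 21342 with amiodarone, a ratio of 0.398 (0.395 to 0.401). Hba-a1 had a ratio of 0.415, Hba-a2 of 0.390, Hbb-bs of 0.382 and Hbb-bt of 0.416. Alas2, at 0.417 (0.386 to 0.449), and Slc4a1, at 0.419 (0.285 to 0.607), lay close to the globins. Bpgm stood apart at 0.711 (0.649 to 0.778), and its interval does not reach that of any other member. Of the 7 genes, 6 were at least 1.5-fold lower and all 7 were lower beyond counting error, beside 2.07% and 15.0% of the 13261 genes counted. The median log2 ratio was -1.27, that of all genes 0.03.

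Against dabigatran alone and against vehicle, the combination library enters again, so neither comparison is independent of the choice. With the combination the globin sum was 0.486 times that of dabigatran (0.482 to 0.490) and 0.540 times that of vehicle (0.535 to 0.544). The 4 globin genes and Alas2 were at least 1.5-fold lower in both comparisons, 5 of 7 members in each, beside 4.39% of the 13379 genes counted against dabigatran and 4.69% of the 13390 counted against vehicle. For Alas2 the ratios were 0.509 (0.470 to 0.550) to dabigatran and 0.590 (0.544 to 0.639) to vehicle. Bpgm was lower by less, at 0.777 (0.706 to 0.855) and 0.879 (0.797 to 0.969). With these, 6 of 7 members were lower beyond counting error in each comparison, beside 23.5% and 22.6% of all genes. Slc4a1, which is not among the genes counted here, was within counting error in both, at 0.778 (0.503 to 1.2) and 1.2 (0.737 to 1.96). The median log2 ratios of the members were -0.98 to dabigatran and -0.76 to vehicle, with -0.01 over all genes in both.

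**Figure D2:**
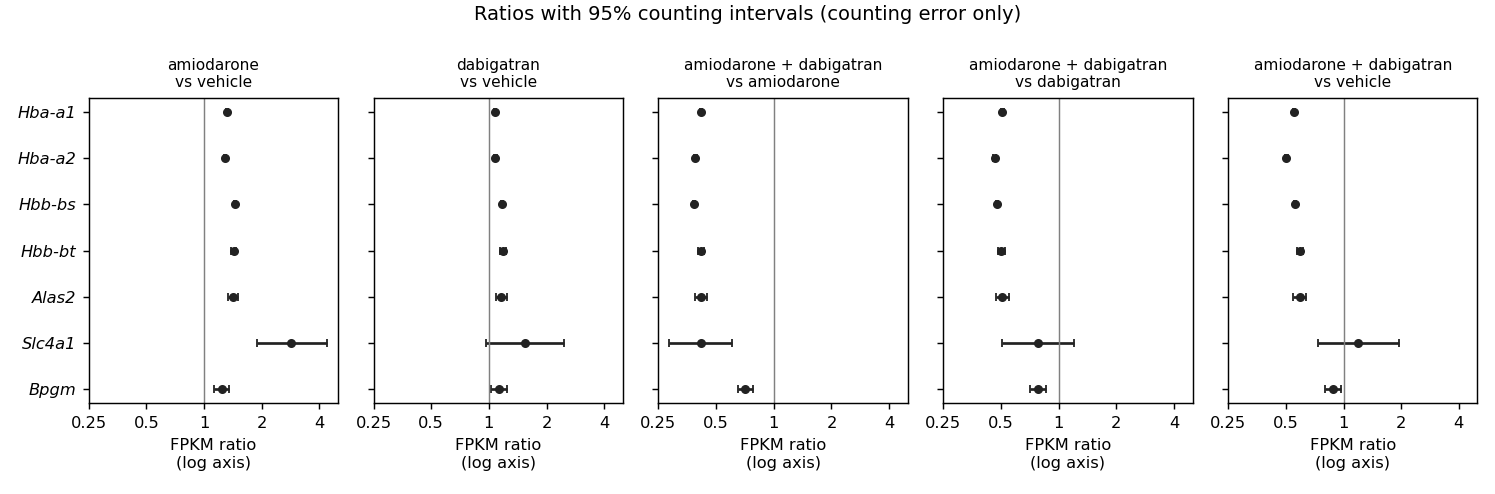
Ratio of FPKM (horizontal axes, log scale) of the 7 genes in each of 5 pairs of libraries, with bars for the 95% counting interval and a line at a ratio of 1. All points lie right of the line for amiodarone and for dabigatran against vehicle, all lie left of it for the combination against amiodarone, which is how the genes were picked, and Slc4a1 has the widest intervals.

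In share of the sequenced RNA, the 4 globin genes took 0.832% (0.828 to 0.836) of the reads with vehicle and 1.13% (1.13 to 1.14) with amiodarone. They took 0.925% (0.920 to 0.929) with dabigatran and 0.451% (0.448 to 0.454) with the combination. The share in the amiodarone library was the highest and that in the combination library the lowest, with no overlap between any of the intervals.

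The balance of the chains also differed between libraries. The alpha genes summed to 2.05 times the beta genes in FPKM with vehicle (2.03 to 2.07), 1.85 with amiodarone (1.83 to 1.86), 1.89 with dabigatran (1.87 to 1.91) and 1.94 with the combination (1.91 to 1.96). The vehicle library had the highest ratio, and the intervals of the dabigatran and combination libraries were the only ones that overlapped. Within the pairs, where reads are divided by estimate, Hba-a2 was 0.712, 0.692, 0.712 and 0.649 times Hba-a1 in the vehicle, amiodarone, dabigatran and combination libraries. Hbb-bt was 0.131, 0.128, 0.132 and 0.140 times Hbb-bs in the same order. The lowest share of Hba-a2 and the highest share of Hbb-bt were both in the combination library.

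The other members were also set against hemoglobin. Per 1000 FPKM of the globin sum, Alas2 measured 2.94 (2.79 to 3.09) in the vehicle library, 3.07 (2.94 to 3.19) in the amiodarone, 3.07 (2.93 to 3.21) in the dabigatran and 3.21 (3.01 to 3.42) in the combination library. The intervals overlap throughout, while the level of Alas2 itself ranged from 27.3 to 65.4 FPKM. Such overlap does not exclude a difference from hemoglobin. With the combination, the ratio to vehicle was 0.590 (0.544 to 0.639) for Alas2 and 0.540 (0.535 to 0.544) for the globin sum. Bpgm on the same scale measured 1.88 (1.76 to 2.01), 1.72 (1.62 to 1.82), 1.92 (1.80 to 2.05) and 3.07 (2.86 to 3.29). The combination library stood above the other 3, whose values lay close to each other. Slc4a1 measured 0.0260 (0.0178 to 0.0368), 0.0548 (0.0446 to 0.0667), 0.0360 (0.0267 to 0.0475) and 0.0577 (0.0416 to 0.0780). It was higher relative to hemoglobin in both libraries with amiodarone than in the vehicle library.

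The sequences just upstream of the genes are shown because the 7 genes were grouped for a shared pattern of levels. Promoters come from RefSeq for GRCm38.p6, where 6 of the 7 members have an entry, and Slc4a1 has none in the table used. The 120 bases before the annotated start are printed on the strand of the gene. A set of 4 motifs was searched on both strands over 250 bases before the start. The GATA motif, bound by the erythroid factor GATA1, was searched as the letters GATA after an adenine or thymine and before an adenine or guanine. The CAC box, which lies within longer sites of the erythroid factor KLF1, was searched as CACCC. The CAAT box was searched as CCAAT, and the TATA box as ATATAA. Capitals mark matches on either strand, those on the other strand being printed as their reverse complement, and no match overlaps another.
Hba-a1, chr11:32283552-32283671, plus strand: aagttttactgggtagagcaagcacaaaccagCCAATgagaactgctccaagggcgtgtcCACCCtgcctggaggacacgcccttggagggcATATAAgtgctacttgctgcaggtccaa
Hbb-bs, chr7:103827929-103828048, minus strand: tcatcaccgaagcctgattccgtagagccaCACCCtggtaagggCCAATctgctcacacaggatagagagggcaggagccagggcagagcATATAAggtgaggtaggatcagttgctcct
Hbb-bt, chr7:103813924-103814043, minus strand: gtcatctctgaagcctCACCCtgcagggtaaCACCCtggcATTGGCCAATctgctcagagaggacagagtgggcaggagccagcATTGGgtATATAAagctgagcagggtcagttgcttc
Alas2, chrX:150547297-150547416, plus strand: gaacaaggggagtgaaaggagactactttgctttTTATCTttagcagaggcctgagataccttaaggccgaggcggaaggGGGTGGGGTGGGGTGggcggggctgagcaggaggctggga
Bpgm, chr6:34476236-34476355, plus strand: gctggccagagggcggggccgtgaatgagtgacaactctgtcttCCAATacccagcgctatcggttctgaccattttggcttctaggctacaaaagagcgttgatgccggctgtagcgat

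Hba-a2 is not printed because 247 of its 250 bases form a single stretch identical to that of Hba-a1, whereas the longest stretch shared by Hbb-bs and Hbb-bt is 14 bases. ATATAA stands 28 bases before the start in Hba-a1 and 31, 30 and 29 bases before it in Hba-a2, Hbb-bs and Hbb-bt. Of 32851 mouse promoters of this length, 9.10% hold ATATAA, 52.0% CACCC, 33.8% CCAAT and 26.5% the GATA motif. All 4 motifs together occur in Hba-a1, Hba-a2 and Hbb-bs, and in 0.508% of all promoters. Hbb-bt holds the motifs other than GATA, with 3 CACCC and 3 CCAAT matches. Alas2 has 1 GATA motif and 3 CACCC matches end to end, without CCAAT or ATATAA, and Bpgm has 3 CCAAT matches as the sole motif of the set. A match is a run of letters and not a measured binding site.

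**Figure D3:**
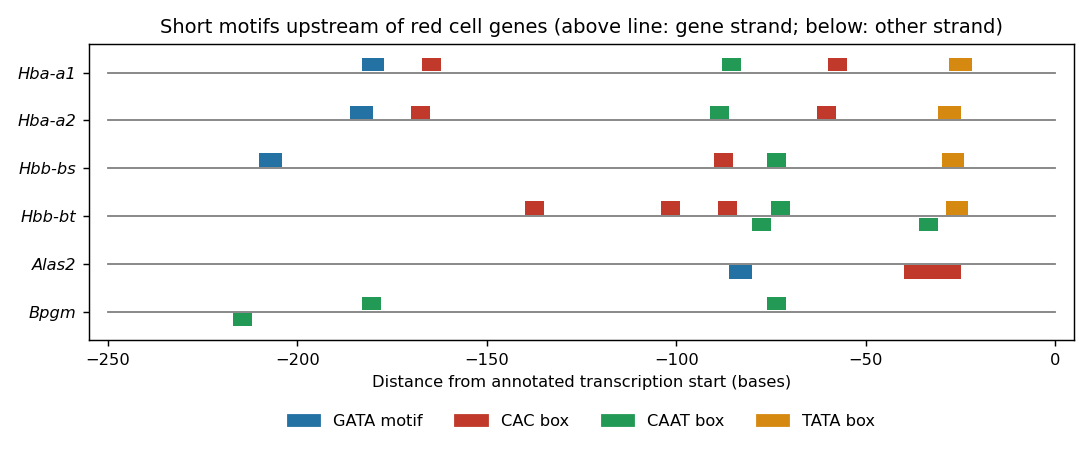
Position of matches to the GATA motif, the CAC box, the CAAT box and the TATA box in the 250 bases before the annotated start of 6 genes, as distance from the start in bases on the horizontal axis, with matches on the gene's strand above each line and on the other strand below it. The TATA box letters lie between 31 and 23 bases before the start in the 4 globin genes and are missing from Alas2 and Bpgm.

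Other genes linked to the red cell, and other globin genes such as Mb, were then described from lists of 83 genes, of which 79 are in the table. The heme synthesis list, 14 genes of the pathway and its transporters besides Alas2, had no member 1.5-fold higher or lower in any of the 5 comparisons. Its median log2 ratio for the combination against amiodarone was 0.05. Fech, which inserts the iron in the last step, measured 19.7, 22.2, 22.9 and 19.8 FPKM in the vehicle, amiodarone, dabigatran and combination libraries. Alas1, the housekeeping form of the enzyme of Alas2, measured 177, 177, 153 and 160 FPKM. Most of these genes serve heme synthesis in every cell, whereas Alas2 is confined to the red cell lineage.

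Genes nearly exclusive to red cells and their precursors were near the limit of detection, as Slc4a1 was. Trim10, a ubiquitin ligase gene of late erythroid cells, had 5 reads in the vehicle library, 37 in the amiodarone, 12 in the dabigatran and 10 in the combination library. It was highest in the amiodarone library, with a ratio to vehicle of 6.92 (2.71 to 22.6). Tspo2, an erythroid membrane protein gene, had 5, 18, 3 and 4 reads, and Epb42, which encodes protein 4.2 of the membrane skeleton, had 7, 20, 3 and 7. Car1, Hemgn and Rhag, of carbonic anhydrase 1, hemogen and the Rh-associated glycoprotein, had 0 reads with vehicle and at most 3 elsewhere, and a count of 0 allows up to 3 reads. The erythroid transcription factor genes Gata1, with 18, 23, 27 and 32 reads, and Klf1, with 1, 3, 3 and 9, had their highest count in the combination library, where hemoglobin was lowest. For Gata1 the combination was within counting error of each other library, at 1.38 (0.782 to 2.47) to amiodarone. For Klf1 it was within counting error of amiodarone, at 2.91 (0.726 to 16.7). Its ratio to vehicle, from 1 read there, was 8 (1.11 to 351).

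Per 1000 FPKM of the globin sum, Trim10 measured 0.00826 (0.00268 to 0.0193), 0.0422 (0.0297 to 0.0581), 0.0177 (0.00916 to 0.0310) and 0.0282 (0.0135 to 0.0519) in the vehicle, amiodarone, dabigatran and combination libraries. On this scale the intervals of the amiodarone and vehicle libraries were apart for Trim10, as they were for Slc4a1, with amiodarone higher. Overlap of such intervals, as below for Tspo2 and Epb42, does not exclude a difference. Tspo2 measured 0.0165 (0.00536 to 0.0386) in the vehicle and 0.0511 (0.0303 to 0.0807) in the amiodarone library, and Epb42 0.00699 (0.00281 to 0.0144) and 0.0145 (0.00887 to 0.0224), with overlapping intervals.

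**Figure D4:**
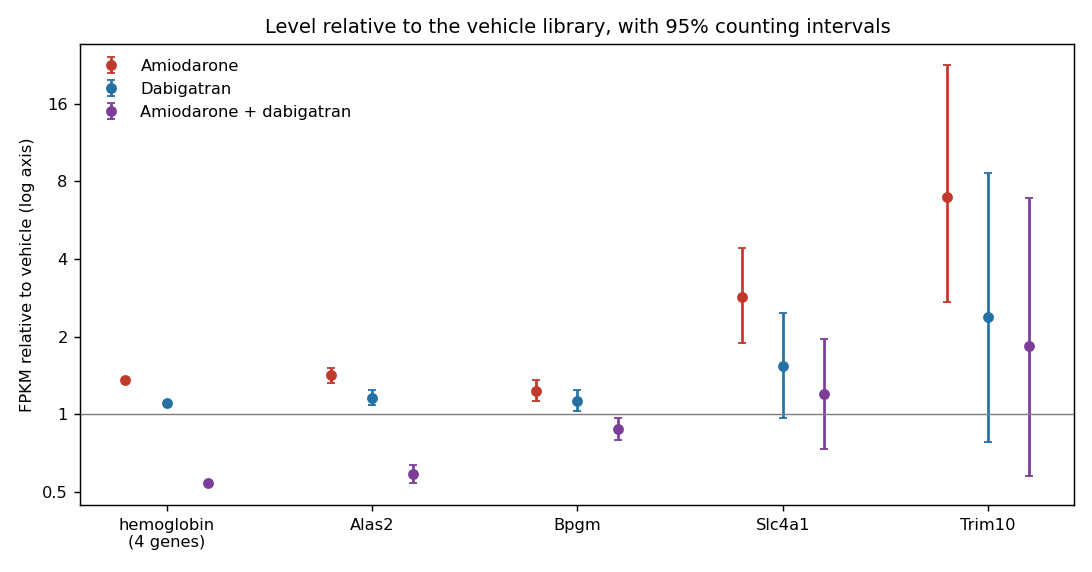
Level relative to the vehicle library (vertical axis, log scale) of the summed globin genes, Alas2, Bpgm, Slc4a1 and Trim10 with amiodarone, dabigatran and both drugs, with bars for 95% counting intervals and a line at 1. For hemoglobin, Alas2 and Bpgm the combination lies below 1, at 0.540, 0.590 and 0.879, whereas for Slc4a1 and Trim10 it lies at 1.2 and 1.85, with wide intervals.

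Over the 6 red cell lists together, 56 genes reached 1 FPKM in the amiodarone or vehicle library. Of them, 5 were at least 1.5-fold higher with amiodarone (Epb41, Tspo2, Ube2l6, Bcl2l1 and Foxo3) and 5 were lower (Mb, Ank1, Cd59a, Epor and Bcl11a), with a median log2 ratio of -0.05. Over all genes 5.49% were at least 1.5-fold higher and 7.22% lower. Tspo2 passed the limit of 1 FPKM through the amiodarone library alone, so it had to be high there. Many listed genes are not particular to red cells, such as Mb, which encodes the myoglobin of muscle, and Bcl2l1, a survival gene of many cells. Counts over these lists are therefore not counts of red cell genes alone. With dabigatran against vehicle, none of the 55 genes that reached 1 FPKM was past 1.5-fold in either direction, beside 1.52% lower and 1.45% higher over all genes. For the combination against amiodarone 2 of 56 were lower (Tspo2 and Ube2l6) and Bcl11a was higher, with a median of -0.01. Over all genes 2.07% were at least 1.5-fold lower and 2.46% higher in this comparison. Against dabigatran 4 of 55 were lower and 3 higher with the combination, where 4.39% of all genes were lower and 4.43% higher. Against vehicle 6 were lower and 3 higher, where 4.69% of all genes were lower and 4.62% higher.

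Markers of other blood cells did not follow hemoglobin over all 4 libraries, though neutrophil markers shared its direction in some comparisons. Their part in the result was not tested. The 14 platelet genes summed to 133 FPKM in the vehicle library, 84.6 in the amiodarone, 146 in the dabigatran and 193 in the combination library. This sum was lowest where hemoglobin was highest and highest where it was lowest. All 14 genes had their highest value in the combination library, and 13 had their lowest in the amiodarone library. The exception was P2ry12, the platelet ADP receptor gene, with 1.77 FPKM in the vehicle library and 2.28 in the amiodarone. Of the 14, 13 were at least 1.5-fold higher with the combination than with amiodarone, beside 2.46% of all genes. The median log2 ratio of the 14 was 1.16, and that of all genes 0.03. Ppbp, the platelet basic protein gene, measured 31.8, 17.1, 40.3 and 52.4 FPKM. The 14 neutrophil genes summed to 278, 1556, 261 and 778 FPKM in the vehicle, amiodarone, dabigatran and combination libraries, and those of the granule enzymes Elane and Mpo had at most 3 reads. The 8 B lymphocyte genes summed to 196, 68.8, 166 and 123 FPKM, and the 8 T lymphocyte genes to 42.25, 38.7, 45.1 and 39.7. Lcn2, the lipocalin gene that lung epithelium also expresses, made up 921 FPKM of the neutrophil sum in the amiodarone library, and the other 13 genes summed to 121, 635, 106 and 458 FPKM. With and without Lcn2, the neutrophil sum was highest in the amiodarone library, as hemoglobin was, but unlike hemoglobin it was higher with the combination than with vehicle. For the combination against amiodarone, 9 of 11 neutrophil genes counted were lower and 2 higher, with a median log2 ratio of -0.41. At least 1.5-fold, 4 were lower and 1 was higher, beside 2.07% and 2.46% of all genes. Of the 10 neutrophil genes that reached 1 FPKM in the combination or vehicle library, Ltf, the lactoferrin gene, was the one that was lower with the combination, at 15.2 against 24.4 FPKM. The B lymphocyte sum was lowest with amiodarone.

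Among lung tissue markers, the 12 endothelial genes summed to 2219 FPKM in the vehicle library, 2750 in the amiodarone, 2482 in the dabigatran and 2308 in the combination library. This order rests on Ramp2, a receptor-modifying protein gene, which measured 545, 920, 555 and 678 FPKM. The other 11 genes summed to 1674, 1830, 1926 and 1630 FPKM, highest in the dabigatran library and lowest in the combination library. With dabigatran all 12 were higher than with vehicle, beside 50.1% of all genes, and none was 1.5-fold higher. With the combination 11 of 12 were lower than with amiodarone, beside 42.0% of all genes, none of them 1.5-fold, with a median log2 ratio of -0.22. Against vehicle 8 of 12 were lower with the combination, beside 52.1% of all genes, with a median of -0.03. The summed epithelial level was 152212, 102534, 126576 and 127295 FPKM, most of it from Scgb1a1, the club cell secretory protein gene, and its median log2 ratio for the combination against amiodarone was 0.03.

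**Figure D5:**
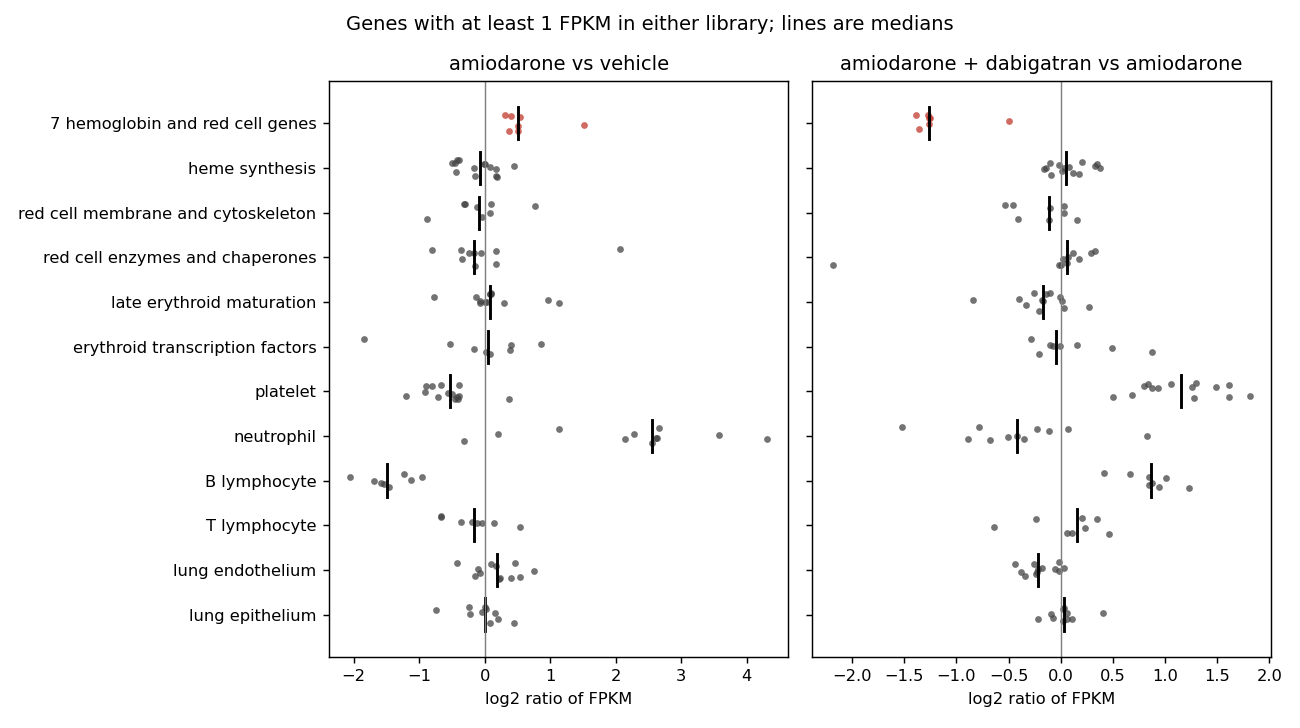
Log2 ratio of FPKM (horizontal axes) for amiodarone against vehicle and for the combination against amiodarone, with a point for each gene reaching 1 FPKM on either side, grouped by list, and a line at each median. The 7 hemoglobin and red cell genes, chosen on the right-hand contrast, have medians of 0.50 and -1.27, the platelet list -0.53 and 1.16, and the heme synthesis list -0.08 and 0.05.

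Genes that handle free hemoglobin, heme and iron form a further list of 19. Hp, which encodes the hemoglobin-binding haptoglobin, measured 881 FPKM in the vehicle library, 749 in the amiodarone, 829 in the dabigatran and 767 in the combination library. Hmox1, the heme-degrading oxygenase gene, measured 26.7, 37.1, 27.5 and 37.7 FPKM, and Slc40a1, which encodes the iron exporter ferroportin, 2.92, 4.81, 3.11 and 4.95. Both were higher in the 2 libraries with amiodarone than in the 2 without it. Fth1, of the ferritin heavy chain, measured 2088, 2395, 2219 and 3015 FPKM, with its highest value in the combination library. Of the 19 genes, Ltf was at least 1.5-fold lower with the combination than with amiodarone and none was higher, beside 2.07% and 2.46% of all genes.

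The genes whose pattern over the 4 libraries lay nearest to the mean pattern of the 7 were sought among 13177 other genes whose mean reached 1 FPKM. The measure was the Euclidean distance between values of log2(FPKM + 1), each centred on its own mean over the 4 libraries. Nearest was Atf3, a stress response transcription factor gene, at a distance of 0.191, with 10.2 FPKM in the vehicle library, 12.2 in the amiodarone, 11.8 in the dabigatran and 5.72 in the combination library. It was followed by Gm45935 at 0.202, Gm2023 at 0.237, Gm2506 at 0.264 and Ctgf at 0.289. The next were Fam177a, Hspa1b, Ltf, Slco1a5 and Ptgs2, at 0.313 to 0.395. None of these genes is on the red cell lists. The members themselves lay at 0.128 (Alas2), 0.157 (Hbb-bt), 0.187 (Hba-a1), 0.242 (Hbb-bs), 0.291 (Hba-a2), 0.446 (Bpgm) and 0.560 (Slc4a1) from their mean, so Bpgm and Slc4a1 were farther from it than all 10 of these genes. With only 4 libraries such a likeness rests on few values, and it is given as a description.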

How the data were processed

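The authors selected poly(A) RNA, sequenced it on DNBseq, mapped reads to GRCm38.p6 with HISAT and to reference genes with Bowtie2, and estimated expression with RSEM. The deposited table gives for each library an estimated count of reads and a normalized value whose unit is not given in the sources used here. The deposited values are read as FPKM, because reads per unit of value differ between libraries by the ratio of their total reads (1.07 for amiodarone against vehicle). The table also gives averages of 2 libraries in 8 columns, left out here. Of the gene identifiers, 17669 (99.4%) matched a RefSeq table of GRCm38.p6, which gave coordinates and promoters, and coding sequences came from GENCODE release M21. Proteins were not used here.

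Ratios of FPKM were computed with exact Clopper-Pearson intervals at 95% from the rounded reads of 2 libraries. Counts over all genes used those with at least 1 FPKM in either library and a threshold of 1.5-fold. With 1 library per group, no test was run. The 7 genes and all lists were chosen with earlier results of these data known. Some genes of the lists are not reported here. The genes named are the 7, genes of the lists, and the 10 genes nearest in pattern. The procedure was tested on simulated data (Python 3.11.15, pandas 2.3.3, scipy 1.17.1). Alternatives were another scaling, other folds, other filters, a pseudocount of 1 and summed globin pairs.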

Additional observations from a re-analysis of the deposited data

Results flagged for a closer look

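Several genes differed in opposite directions, beyond counting error, in the same contrast made with and without the other drug. The value given is a ratio of ratios, the ratio of the combination to amiodarone divided by the ratio of dabigatran to vehicle, and it is the same number when amiodarone is taken without and with dabigatran. With 1 library per group the difference itself was not tested. Opposite directions were seen in 8.24% of 13536 genes for dabigatran without and with amiodarone, and in 4.03% for amiodarone without and with dabigatran. These shares are not limited to genes lower with the combination than with amiodarone. The share of genes opposite in both contrasts is not given here. The 7 genes were picked as lower with the combination than with amiodarone, so their direction there was given. The other contrast, amiodarone without and with dabigatran, uses the same amiodarone and combination libraries. The choice favours opposite directions there too, so neither share is a matched reference for the 7 genes.

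Both contrasts were opposite for 6 of the 7 genes, with ratios of ratios of 0.384 for Hba-a1, 0.36 for Hba-a2, 0.327 for Hbb-bs, 0.352 for Hbb-bt, 0.359 for Alas2 and 0.628 for Bpgm. Each of these was higher with either drug alone than with vehicle and lower with both drugs than with either. Slc4a1 was not among them. Of the other genes on the red cell lists, Alad had 1.51, Fech 0.767, Pgd 1.22, Ube2o 0.706 and Tal1 0.66 in both contrasts. For dabigatran without and with amiodarone alone, Ube2l6 had 0.48, Tent5c 0.792 and Bcl11a 2.45.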

How the results depend on the processing

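No ratio of a member changed direction under the alternatives. Over 35 ratios and 105 alternatives of scaling, 91 values stayed within the counting interval, 14 left it, and the largest change was 5.17%. Counts moved more, since several ratios lie near a threshold. With amiodarone against vehicle, 6 members were higher at the lowest fold threshold tried, and 2 were 1.5-fold higher after rescaling by the median ratio over 12728 genes, which put Hbb-bs at 1.51. At 2-fold, 0 members were higher with dabigatran than with vehicle, 2 were lower with the combination than with dabigatran and 0 than with vehicle. Of the other genes on the red cell lists, 8 were higher with amiodarone at the lowest threshold, 2 at 2-fold and 17 without a filter on low values. For the combination against amiodarone 8 were lower at the lowest threshold, 1 at 2-fold, 11 without a filter and 1 at a minimum of 5 FPKM. From read counts in place of FPKM, the alpha to beta ratio was 1.78 in the vehicle library, 1.6 in the amiodarone, 1.64 in the dabigatran and 1.68 in the combination library, which does not divide by transcript length and left the order of the libraries as it was.

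No paired analysis was possible because each group holds 1 library, and leaving out a library was not run for the same reason. Depth limits Slc4a1 and the other low erythroid genes.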

Other observations

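Oxygen-regulated genes were read in the same libraries from a list of 12, of which 11 are in the table. Epas1, which encodes the hypoxia-inducible factor 2 alpha subunit abundant in lung endothelium, measured 649 FPKM in the vehicle library, 951 in the amiodarone, 686 in the dabigatran and 800 in the combination library. Bnip3, a mitophagy gene induced by low oxygen, measured 34.8, 54.4, 33.5 and 45.8 FPKM, and Adm, which encodes the vasodilator adrenomedullin, 3.71, 6.20, 3.83 and 5.54. Vegfa, the endothelial growth factor gene, measured 277, 231, 304 and 237 FPKM. The first 3 of these genes were higher in both libraries with amiodarone than in both without it, and Vegfa was lower. Of the 10 listed genes that reached 1 FPKM in the amiodarone or vehicle library, 7 were higher with amiodarone and 3 lower. At least 1.5-fold, 3 were higher and 1 was lower, beside 5.49% and 7.22% of all genes. The lower gene was Egln3, at 1.07 FPKM with vehicle and 0.67 with amiodarone. The median log2 ratio of the 10 was 0.13. For the combination against amiodarone no listed gene was past 1.5-fold and the median log2 ratio was 0.03.

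Hamp, which encodes the iron-regulating hormone hepcidin, measured 61.0 FPKM in the vehicle library, 28.6 in the amiodarone, 45.2 in the dabigatran and 21.1 in the combination library, from 135 to 360 reads. Mb measured 190, 100.3, 143 and 69.1 FPKM. Both genes had the order vehicle, dabigatran, amiodarone, combination from high to low. Nfe2, a transcription factor gene shared by red cell precursors and megakaryocytes, measured 4.98, 6.55, 5.08 and 9.19 FPKM, and its highest value was in the combination library, where the platelet genes were also highest.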
